A study of Homo sapiens with 3 samples.

Results

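The genes described here are the ligands and receptors of the 4 classical axon guidance systems: semaphorins with plexins and neuropilins, ephrins with Eph receptors, slits with roundabouts, and netrins with UNC5 receptors. They were chosen by gene name, and the choice was made with earlier results of these data known. The deposited table held 68 of them among 50495 gene names, 35 ligands and 33 receptors or co-receptors, each under a single identifier. RNA was sequenced from cells labelled as AGS, a human gastric adenocarcinoma line, after 48 h with the compound SFE at 18 µM, with SFA at 12 µM, or with DMSO, the vehicle. All 3 groups were cultured in RPMI-1640 with fetal bovine serum, and each is a single library of ribosomal RNA-depleted total RNA. No group has a replicate, so every difference compares 1 library with another and the spread between cultures is unknown. SFE and SFA are used here as code names only, and their doses differ.

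Guidance genes are named for the steering of growing axons, but epithelial and carcinoma cells use them too. Semaphorins bind plexins, whose cytoplasmic part acts on small GTPases, and the secreted class 3 semaphorins mostly need a neuropilin as co-receptor. Eph receptors are tyrosine kinases that meet ephrins on the neighbouring cell, so that contact signals in either direction and sorts cells. Slits act through roundabout receptors, and netrins through DCC and the UNC5 receptors, which can promote apoptosis when no netrin is bound.

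Total counts were 13644676 in the SFE library, 13639844 in the SFA library and 18767232 in the DMSO library. Levels are the authors' FPKM, in which a gene's count is divided by its length and by the total of its library, and ratios are counts divided by library totals, with 95% intervals that cover counting error only. Of the epithelial markers, EPCAM, CDH1 and KRT19 were each at 0.336 FPKM or less in every library, whereas KRT8, KRT18 and KRT7 stood between 118 and 534 FPKM. The epithelial markers summed to 679 FPKM with SFE, 679 with SFA and 1070 with DMSO. KRT8 and KRT18 carried that sum, while KRT7, at 151, 161 and 118 FPKM, and CLDN4, at 1.72, 1.97 and 1.48 FPKM, were lowest with DMSO. Of 7 fibroblast markers 4 reached 1 FPKM, and the sum of all 7 was 19.8 FPKM with SFE, 16.6 with SFA and 30.6 with DMSO, with PDGFRA at 0 counts. DCN was at 0.159 FPKM or less in every library, and COL1A2 had 1 count with DMSO and 0 with SFE and SFA. EPCAM, CDH1 and KRT19 are thus near 0 in libraries labelled as an epithelial line, while KRT8, KRT18 and KRT7 are high. COL1A1, COL3A1, PDGFRB and THY1 are expressed, while COL1A2, DCN and PDGFRA are near 0 or absent. The identity of the line is in doubt and was not tested. No endothelial or leukocyte marker reached 1 FPKM, and of 8 neuronal markers only SNAP25 did, with STMN2 at 0 counts. Sums over these lists were 0.453, 0.388 and 0.703 FPKM for 6 endothelial markers, 0.209, 0.309 and 0.173 for 5 leukocyte markers and 1.43, 2.01 and 1.68 for the neuronal ones, with SFE, SFA and DMSO.

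Of the 68 guidance genes, 27 reached 1 FPKM in at least 1 library, 14 ligands and 13 receptors or co-receptors. None of these 27 was at least 2-fold higher with either compound than with DMSO on the log2(FPKM + 1) scale, against 1.37% of all 11680 genes that passed the same filter with SFE and 1.36% with SFA. None was at least 2-fold lower with SFE (1.01% of all genes), and 1, SEMA6B, was with SFA (1.34% of all genes). This scale understates the change of low genes. By ratio of counts, SEMA6B was 2.87-fold lower with SFE and SEMA3C 2.17-fold lower with SFA. At the lesser limit of 1.5-fold on log2(FPKM + 1), 1 gene (NTN4) was higher and 3 (SEMA6B, SEMA3C and EFNA4) were lower with SFE, against 5.34% and 3.48% of all genes. With SFA, 1 (EPHA2) was higher and 5 (SEMA6B, SEMA3C, SEMA3F, SEMA3B and UNC5B) were lower, against 5.36% and 4.67% of all genes. Differences lay above 0 for 11 genes and below 0 for 16 with SFE, against 55.2% and 44.8% of all genes. With SFA these counts were 11 and 16, against 51.4% and 48.6%. The median difference from DMSO was −0.07 with SFE and −0.15 with SFA, beside 0.03 and 0.01 over all genes that passed. Both comparisons use the same DMSO library, so they are not independent of each other. SEMA6B passed the filter through the DMSO library alone, so its counting among the lower genes is partly set by the filter.

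**Figure D1:**
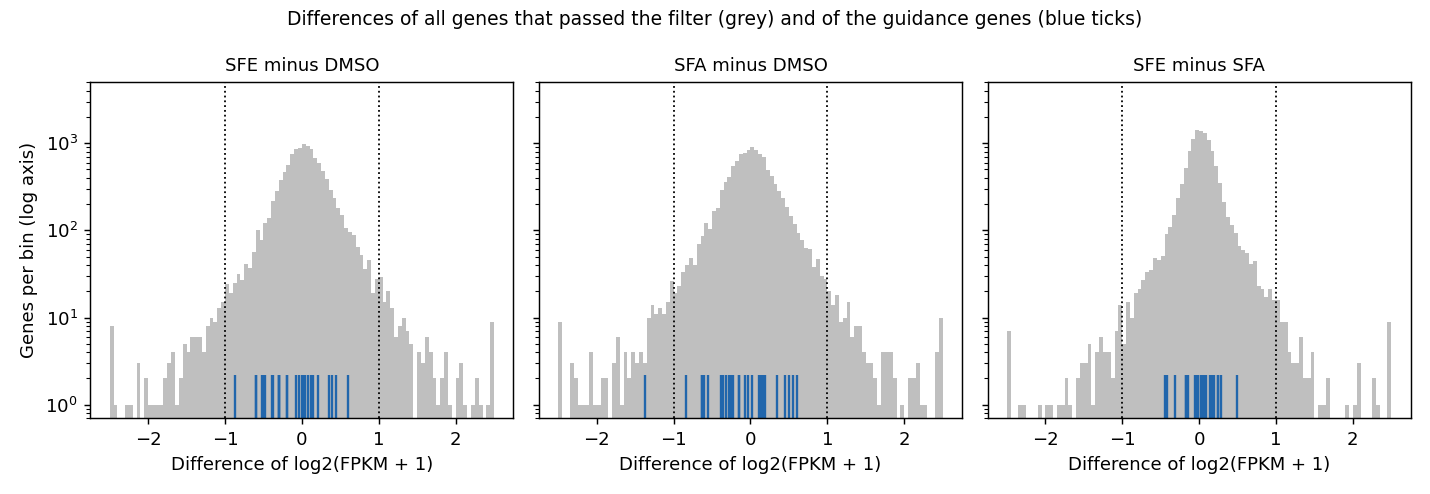
Histograms of the difference of log2(FPKM + 1) between libraries for the 11680 genes that passed the filter (grey, genes per bin on a log axis, differences beyond the axis range placed in its end bins), with the 27 guidance genes as blue ticks and dotted lines at a 2-fold difference. The blue ticks lie between −0.87 and 0.60 for SFE minus DMSO, between −1.37 and 0.61 for SFA minus DMSO and between −0.44 and 0.50 for SFE minus SFA.

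Among secreted ligands, the 3 measured class 3 semaphorins were lower in each treated library than in the DMSO library. SEMA3C (chr7:80742538-80922359), which signals through neuropilins and plexin D1, stood at 2.57 FPKM with SFE, 2.02 with SFA and 4.39 with DMSO, from 273, 214 and 640 counts. Its ratio to DMSO was 0.587 with SFE (0.507 to 0.677) and 0.460 with SFA (0.392 to 0.538). SEMA3B (chr3:50267558-50277546), a candidate tumour suppressor of the short arm of chromosome 3, stood at 4.36, 3.52 and 6.00 FPKM with SFE, SFA and DMSO, from 1068, 861 and 2021 counts. The SEMA3B ratio was 0.727 with SFE (0.674 to 0.783) and 0.586 with SFA (0.541 to 0.635). SEMA3F (chr3:50155045-50189075), a ligand of neuropilin 2, stood at 6.66, 5.96 and 9.82 FPKM, from 884, 790 and 1791 counts, with ratios of 0.679 (0.626 to 0.736) and 0.607 (0.557 to 0.660). In each of the 3 genes the SFA library was lowest, the SFE library between, and the DMSO library highest, and the counting intervals of both ratios lay below 1. The fibroblast marker sum given above was likewise lowest with SFA and highest with DMSO, as were COL1A1, COL3A1 and PDGFRB, whereas THY1, at 7.25, 6.48 and 4.29 FPKM, was lowest with DMSO. Their part in these differences was not tested.

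SEMA3F and SEMA3B lie near each other on chromosome 3, with GNAI2, a G protein subunit gene, SLC38A3, an amino acid transporter gene, and others between them. GNAI2, named like SLC38A3 after its values were seen, stood at 41.4 FPKM with SFE, 37.6 with SFA and 39.2 with DMSO, a ratio of 1.06 with SFE (1.03 to 1.09) and 0.961 with SFA (0.932 to 0.990). It thus lay closer to DMSO than either semaphorin. SLC38A3, at few counts (15, 13 and 36), had ratios of 0.573 with SFE (0.292 to 1.07) and 0.497 with SFA (0.242 to 0.959), below DMSO like the semaphorins but within counting error with SFE. SEMA3F-AS1, an antisense gene whose exons overlap SEMA3F, had 7 counts with SFE, 4 with SFA and 82 with DMSO. Whether counting used strand is not known, so reads of this pair cannot be told apart, and the antisense counts come to 2.68% of those of SEMA3F over all libraries.

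The 250 bases upstream of the start sites of these 3 semaphorins, from RefSeq on GRCh38.p14, are shown because all 3 genes were lower with each compound while their promoters differ in composition. Capitals mark the GC box (GGGCGG) and the core of the antioxidant response element (TGACNNNGC), each searched on both strands. The AP-1 site (TGANTCA), the cyclic AMP response element (TGACGTCA), the E-box (CACGTG) and the TATA box (TATAAA) were searched in the same way. The antioxidant core and the cyclic AMP element share their first letters and can overlap.
SEMA3C, chr7:80922390-80922639, minus strand: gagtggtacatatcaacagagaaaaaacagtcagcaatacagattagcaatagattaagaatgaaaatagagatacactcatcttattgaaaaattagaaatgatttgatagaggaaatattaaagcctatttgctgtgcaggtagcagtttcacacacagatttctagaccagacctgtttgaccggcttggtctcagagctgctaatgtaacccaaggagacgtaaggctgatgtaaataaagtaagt
SEMA3B, chr3:50267402-50267651, plus strand: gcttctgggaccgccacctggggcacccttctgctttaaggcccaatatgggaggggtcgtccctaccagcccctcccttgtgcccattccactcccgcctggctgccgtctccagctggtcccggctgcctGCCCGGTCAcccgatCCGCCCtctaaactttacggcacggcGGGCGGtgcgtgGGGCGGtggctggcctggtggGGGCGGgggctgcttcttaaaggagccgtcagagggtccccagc
SEMA3F, chr3:50154808-50155057, plus strand: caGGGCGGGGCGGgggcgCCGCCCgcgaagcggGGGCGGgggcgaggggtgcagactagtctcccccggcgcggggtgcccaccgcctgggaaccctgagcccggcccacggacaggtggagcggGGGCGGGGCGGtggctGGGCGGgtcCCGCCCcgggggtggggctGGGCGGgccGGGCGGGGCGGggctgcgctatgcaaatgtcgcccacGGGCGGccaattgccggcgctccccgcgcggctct

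The SEMA3F window held 12 GC boxes at 82.0% G and C, the SEMA3B window 4 GC boxes and 1 antioxidant response element core at 68.8%, and the SEMA3C window none of the 6 motifs at 36.4%. Of 35116 RefSeq promoter windows of this length, 42.6% held a GC box and 10.9% the antioxidant response element core. A promoter was found for 24 of the 27 measured guidance genes. Of these 20 held a GC box, and 3 (EFNA4, EFNA5 and SEMA3B) held the antioxidant core. Their median G and C content was 71.0%, against 58.0% over all windows. The 24 genes had passed the expression filter, while the 35116 windows were not limited to such genes. These values thus compare unlike sets and do not show a trait of guidance genes. A match describes these letters and is not evidence of a factor bound there.

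Among membrane-bound semaphorins, SEMA6B (chr19:4542593-4559808, minus strand), a transmembrane semaphorin that binds class A plexins, had the largest difference from DMSO of the 27 measured guidance genes with each compound. It had 53 counts with SFE, 18 with SFA and 209 with DMSO, or 0.795, 0.270 and 2.28 FPKM. That is 2.87-fold lower with SFE (2.11 to 3.95) and 8.44-fold lower with SFA (5.21 to 14.5). SEMA6B overlaps no other listed gene, and its ratio of SFE to SFA was 2.94 (1.70 to 5.34). The counts are few, and the wide intervals reflect this.

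SEMA4B stood apart from SEMA6B in direction. It was at 6.66 FPKM with SFE, 9.23 with SFA and 6.00 with DMSO, a ratio of 1.11 with SFE (1.04 to 1.19) and 1.54 with SFA (1.45 to 1.64). SEMA7A, a lipid-anchored semaphorin that binds plexin C1 and integrins, stood at 1.85, 2.56 and 1.80 FPKM, with ratios of 1.03 (0.845 to 1.25) and 1.42 (1.19 to 1.70). In SEMA4B and SEMA7A the SFE value lay close to DMSO and the SFA value above it. SEMA7A with SFE turned to a ratio of 0.975 under median-ratio scaling. SEMA4C, a ligand of plexin B2, stood at 4.27 FPKM with SFE, 4.32 with SFA and 4.27 with DMSO, and its counting intervals included 1 in both comparisons.

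Of the plexin receptors, 6 of 9 were measured, and 5 of these lay below DMSO in each treated library, PLXNA2 within counting error. PLXNB2 (chr22:50274979-50307627), the most abundant plexin, stood at 38.5 FPKM with SFE, 39.0 with SFA and 47.3 with DMSO, from 6263, 6339 and 10596 counts. Its ratio was 0.813 with SFE (0.788 to 0.839) and 0.823 with SFA (0.798 to 0.849), a small difference with a narrow interval because the counts are many. PLXNB1 (chr3:48403854-48430051), the receptor of SEMA4D, stood at 3.59, 3.08 and 4.97 FPKM, a ratio of 0.722 with SFE (0.663 to 0.786) and 0.619 with SFA (0.566 to 0.677). PLXND1, which binds SEMA3E directly, stood at 9.74, 9.33 and 12.2 FPKM. PLXNA3 stood at 4.91, 4.58 and 6.28 FPKM. PLXND1 and PLXNA3 were also lowest with SFA, but within counting error of SFE. Their ratios of SFE to SFA were 1.04 (0.981 to 1.11) and 1.07 (0.975 to 1.18). Exons of PLXNA3 overlap those of LAGE3, which had 80.1% as many counts as PLXNA3, so the value of PLXNA3 is uncertain.

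The other measured class A plexins, the usual partners of neuropilins, lay closer to DMSO. PLXNA1 stood at 17.6 FPKM with SFE, 18.2 with SFA and 16.5 with DMSO, and PLXNA2 at 2.44, 2.37 and 2.53 FPKM. NRP1, a co-receptor of class 3 semaphorins and of VEGF, stood at 1.96, 1.80 and 1.55 FPKM, with ratios of 1.26 with SFE (1.11 to 1.43) and 1.16 with SFA (1.02 to 1.32). NRP2 stood at 2.32, 1.91 and 2.24 FPKM, with a ratio of 1.04 with SFE (0.933 to 1.15), which became 0.980 under median-ratio scaling, and of 0.853 with SFA (0.764 to 0.953). NRP1 thus lay slightly above DMSO in both treated libraries, unlike SEMA3B, SEMA3C and SEMA3F, and NRP2 slightly below it with SFA. SEMA3A, under 1 FPKM in every library, had ratios of 1.38 with SFE (0.973 to 1.94) and 1.26 with SFA (0.882 to 1.79). Both of these intervals included 1.

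**Figure D2:**
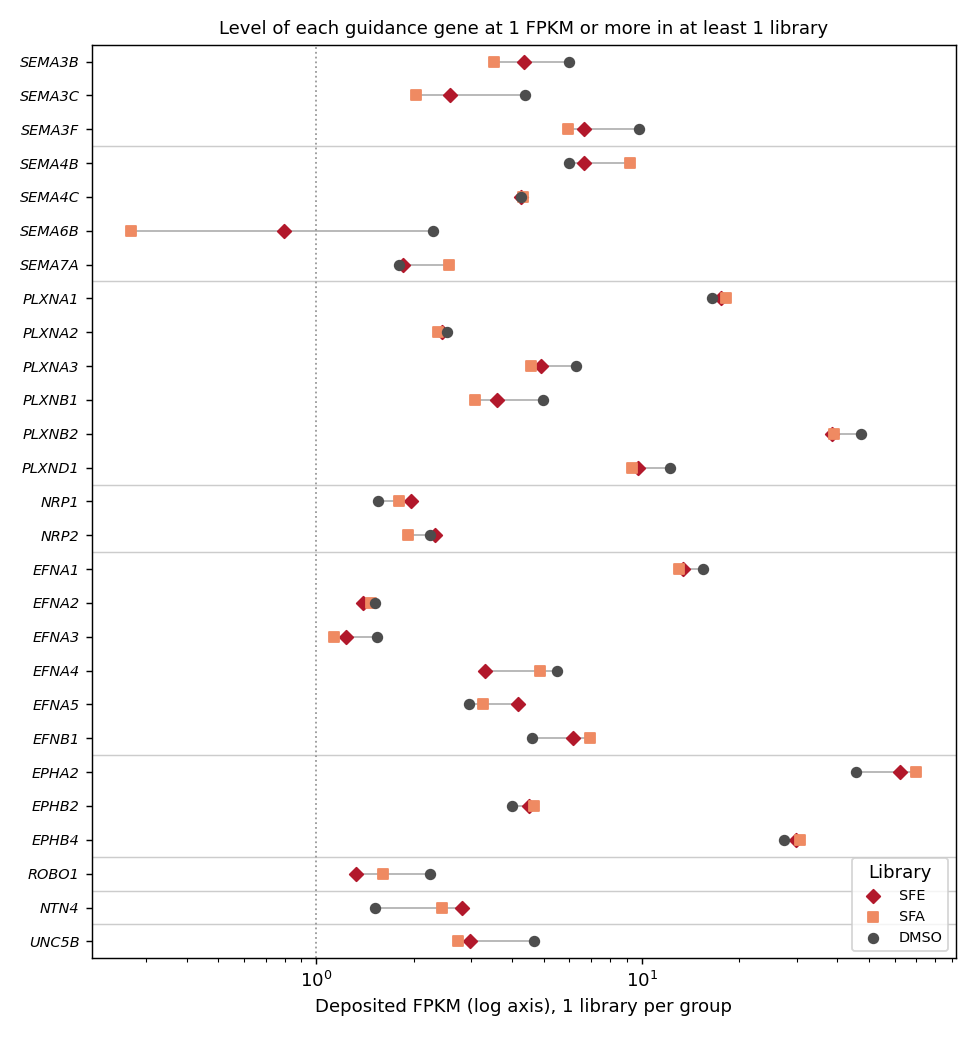
Deposited FPKM (log axis) of the 27 measured guidance genes, with 1 point for each library and grey lines between families, in the order class 3 semaphorins, other semaphorins, plexins, neuropilins, ephrins, Eph receptors, roundabout, netrin and UNC5 receptor. EPHA2, PLXNB2 and EPHB4 lie highest in all 3 libraries, and SEMA6B spreads most, between 0.270 FPKM with SFA and 2.28 FPKM with DMSO.

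The 3 measured Eph receptors of 14 lay above DMSO in both treated libraries, and EPHA2 was there the guidance gene with the highest FPKM. EPHA2 (chr1:16124337-16156087, minus strand), a receptor often raised in carcinomas and best known for binding ephrin-A1, stood at 62.1 FPKM with SFE, 69.9 with SFA and 45.5 with DMSO, from 3932, 4427 and 3964 counts. Its ratio was 1.36 with SFE (1.31 to 1.43) and 1.54 with SFA (1.47 to 1.60). Median-ratio scaling gave 1.29 with SFE. EPHA2 alone was at least 1.5-fold higher with SFA on the log2(FPKM + 1) scale, where median-ratio scaling left 0 such guidance genes and upper-quartile scaling 2. EPHB4, the receptor of ephrin-B2, stood at 29.9, 30.7 and 27.4 FPKM, and EPHB2, a Wnt target in intestinal crypts, at 4.52, 4.68 and 4.0 FPKM. Ratios to DMSO were 1.09 with SFE (1.05 to 1.14) and 1.12 with SFA (1.07 to 1.17) for EPHB4, and 1.13 (1.03 to 1.24) and 1.17 (1.07 to 1.28) for EPHB2. These differences are small beside that of EPHA2. Exons of EPHB4 overlap SLC12A9, which had 12.8% as many counts.

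The EPHA2 upstream window is shown because it held a full cyclic AMP response element, in capitals with its 1 GC box, in a window with 63.2% G and C. Of all windows 1.65% held that element, and 2 of the 24 guidance gene windows did, those of EPHA2 and SEMA4C. SEMA4C had ratios to DMSO of 0.999 with SFE and 1.01 with SFA. As said for the semaphorin windows, these sets are unlike, and a match is not evidence of a factor bound there.
EPHA2, chr1:16156070-16156319, minus strand: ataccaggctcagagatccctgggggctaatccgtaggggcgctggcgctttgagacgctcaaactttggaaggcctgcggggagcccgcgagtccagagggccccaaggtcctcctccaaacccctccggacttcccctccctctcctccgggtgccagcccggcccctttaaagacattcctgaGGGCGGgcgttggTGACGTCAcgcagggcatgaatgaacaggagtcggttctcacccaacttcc

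Of the ephrins, the ligands of Eph receptors, 6 of 8 were measured. EFNA1, a ligand of EPHA2, stood at 13.4 FPKM with SFE, 13.0 with SFA and 15.4 with DMSO, a ratio of 0.865 with SFE (0.791 to 0.946) and 0.842 with SFA (0.769 to 0.921). The ligand thus lay slightly below DMSO in the libraries in which its receptor lay above. EFNB1 (chrX:68828997-68842147), a transmembrane ephrin, stood at 6.15, 6.92 and 4.61 FPKM, with ratios of 1.33 (1.13 to 1.58) and 1.5 (1.27 to 1.77). EFNA5 stood at 4.18, 3.25 and 2.94 FPKM, with ratios of 1.42 (1.24 to 1.63) with SFE and 1.10 (0.952 to 1.28) with SFA. EFNA5 was thus higher than DMSO beyond counting error only with SFE, and its ratio of SFE to SFA was 1.29 (1.11 to 1.49).

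EFNA4 (chr1:155063731-155069553), a lipid-anchored ephrin, was at 3.31 FPKM with SFE, 4.86 with SFA and 5.51 with DMSO, from 122, 179 and 279 counts. It was 1.66-fold lower with SFE (1.34 to 2.07) and 1.13-fold lower with SFA (0.936 to 1.37), an interval that includes 1. Its ratio of SFE to SFA was 0.681 (0.537 to 0.862), the lowest among the measured guidance genes. EFNA3, its neighbour, stood at 1.23, 1.13 and 1.54 FPKM, and EFNA2 at 1.39, 1.47 and 1.52 FPKM from 18, 19 and 27 counts. For EFNA2 and EFNA3 no difference from DMSO was detectable at this depth. A clone-named gene shares exons with EFNA3 and EFNA4, with 23.2% and 7.59% as many counts.

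In the slit and roundabout system, ROBO1 (chr3:78597240-79767815), the slit receptor, stood at 1.32 FPKM with SFE, 1.60 with SFA and 2.24 with DMSO. It was 1.70-fold lower with SFE (1.49 to 1.95) and 1.40-fold lower with SFA (1.24 to 1.59), so here the SFE library was the lowest. Its ligand SLIT2 (chr4:20253260-20620561) stayed under 1 FPKM, at 0.593 FPKM with SFE, 0.545 with SFA and 0.226 with DMSO. These values rest on 124, 114 and 65 counts, a ratio of 2.62 with SFE (1.93 to 3.60) and 2.41 with SFA (1.76 to 3.32). The ligand and its receptor thus differed from DMSO in opposite directions, the ligand at a low level.

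In the netrin system, NTN4 (chr12:95657807-95791152), a netrin of basement membranes that binds laminin, stood at 2.81 FPKM with SFE, 2.43 with SFA and 1.52 with DMSO, from 183, 158 and 136 counts. Its ratio was 1.85 with SFE (1.47 to 2.33) and 1.60 with SFA (1.26 to 2.03), and it alone was at least 1.5-fold higher with SFE on the log2(FPKM + 1) scale, where median-ratio scaling left 0 such guidance genes. UNC5B (chr10:71212570-71302864), a receptor of netrin-1, stood at 2.96, 2.73 and 4.67 FPKM, from 282, 260 and 612 counts, or 1.58-fold lower with SFE (1.37 to 1.82) and 1.71-fold lower with SFA (1.48 to 1.99). NTN1 itself stayed below the filter, at 0.648 FPKM with SFE, 0.659 with SFA and 0.892 with DMSO, and its counting intervals against DMSO included 1 with each compound. Of other netrin receptors, DCC had 0 counts in every library, and NEO1 (neogenin) stood at 1.06 FPKM with SFE, 1.0 with SFA and 0.820 with DMSO.

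**Figure D3:**
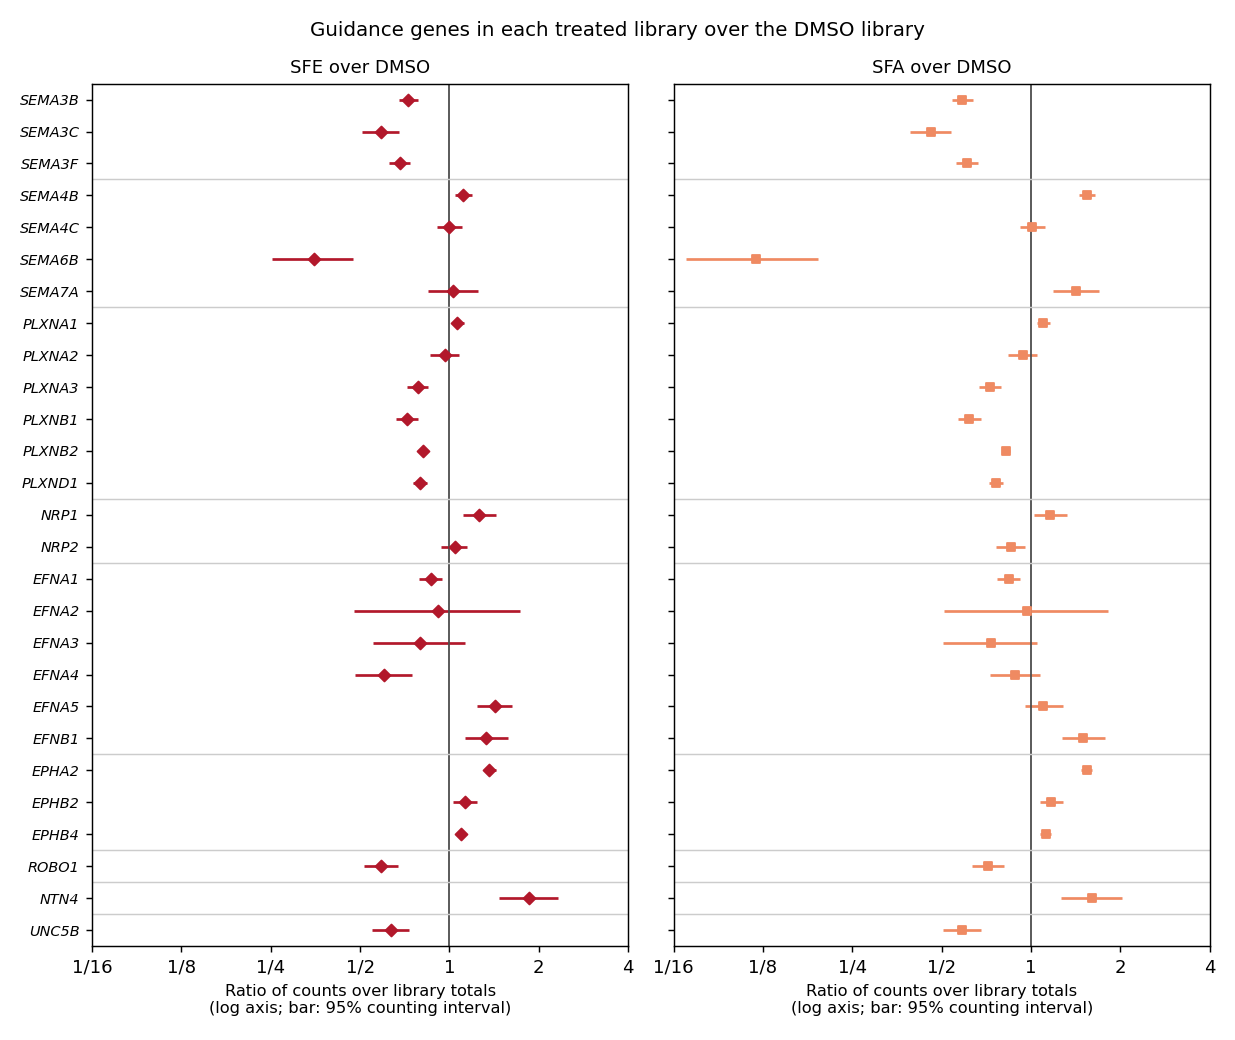
Ratio of counts over library totals (log axis) of the 27 measured guidance genes in the SFE library and in the SFA library over the DMSO library, with 95% counting intervals as bars and a line at 1. SEMA6B lies furthest left in both panels, at 0.349 with SFE and 0.118 with SFA, and NTN4 furthest right, at 1.85 and 1.60.

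Summed over all members of a family, whatever their level, counts differed by family. Class 3 semaphorins came to 169 CPM (counts scaled to equal library totals) with SFE, 142 with SFA and 242 with DMSO, a ratio of 0.698 with SFE (0.663 to 0.734) and 0.587 with SFA (0.556 to 0.619). Plexins came to 1010, 1000 and 1180 CPM and UNC5 receptors, nearly all UNC5B, to 20.7, 19.1 and 32.8. Eph receptors came to 647, 690 and 542 CPM, a ratio of 1.19 with SFE (1.16 to 1.23) and 1.27 with SFA (1.24 to 1.31). The sums of class 3 semaphorins, plexins, roundabouts and UNC5 receptors thus lay below DMSO with each compound, and those of Eph receptors and slits above it, under all 3 scalings tried. Slit counts were nearly all of SLIT2, and roundabout counts nearly all of ROBO1. Eph receptor counts were mostly of EPHA2 and EPHB4, while some low members such as EPHB3 and EPHA5 lay below DMSO. Ephrins came to 126, 124 and 129 CPM, with intervals that included 1 in both comparisons. All 68 genes together came to 2320, 2360 and 2480 CPM.

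**Figure D4:**
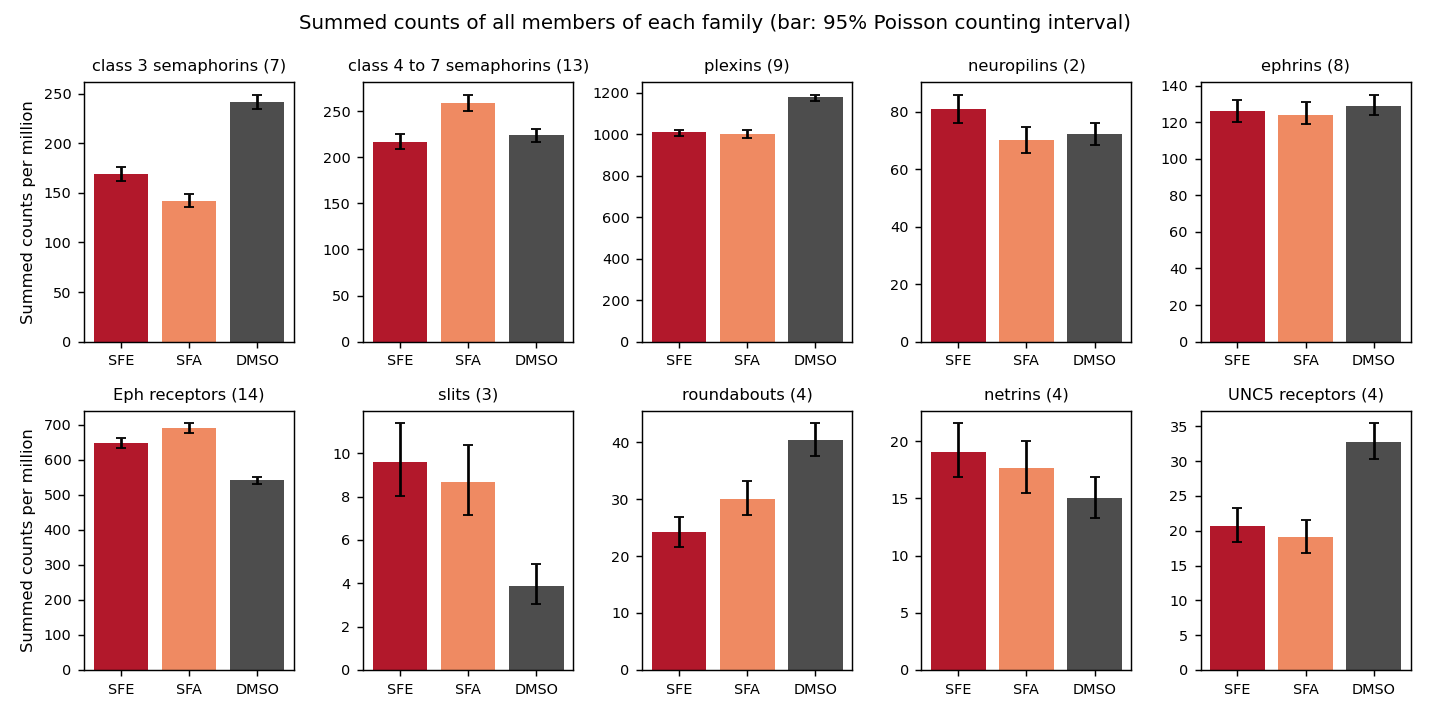
Summed CPM of all members of each family (number of members in parentheses) in the SFE, SFA and DMSO libraries, with 95% Poisson counting intervals as bars. Class 3 semaphorins, plexins, roundabouts and UNC5 receptors are highest with DMSO, while Eph receptors are highest with SFA, at 690 CPM, and slits with SFE, at 9.60.

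The other 41 guidance genes stayed under 1 FPKM in every library. Of these, 7 had 0 counts in all 3 libraries: EPHA3, EPHA7, EPHA8, EPHB6, ROBO2, SEMA5B and UNC5C. A count of 0 allows up to 0.220 CPM with SFE and with SFA and 0.160 with DMSO, taking 3 counts as the limit. A further 27 had counts but stayed at 0.488 FPKM or less. The remaining 7, which reached 0.5 FPKM somewhere, were SEMA6D, EFNB2, EPHA5, EPHB3, NTN1, NTN3 and SLIT2. NTN3, at 0.993 FPKM with DMSO, lay just under the filter, and EFNA2, at 1.52 FPKM with DMSO, was the lowest gene above it.

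Several of these low genes nonetheless had enough counts to be compared. SEMA6D, a transmembrane semaphorin, had 157 counts with SFE, 157 with SFA and 428 with DMSO, 1.98-fold lower with SFE (1.65 to 2.40) and 1.98-fold lower with SFA (1.65 to 2.39). EPHB3, the Eph receptor that acts with EPHB2 in intestinal crypts, had 13, 20 and 54 counts, 3.02-fold lower with SFE (1.63 to 6.03) and 1.96-fold lower with SFA (1.16 to 3.46). Its direction was opposite to that of EPHB2. EPHB3 lies within the listed locus of EIF2B5. EPHA5 had 95, 68 and 167 counts, a ratio of 0.782 with SFE (0.602 to 1.01) and 0.560 with SFA (0.416 to 0.747). The SFE interval included 1. The antisense gene EPHA5-AS1, whose exons overlap those of EPHA5, had 28, 16 and 3 counts.

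Between the compounds, whose doses differ, no measured guidance gene was at least 1.5-fold apart on the log2(FPKM + 1) scale, against 2.88% of all genes higher and 2.17% lower with SFE than with SFA. At 2-fold there was likewise none, against 0.676% and 0.616%. Differences lay above 0 for 15 genes and below 0 for 12, against 55.6% and 44.3% of all genes. The median difference, SFE minus SFA, was 0.04 beside 0.02 over all genes. SEMA6B at 0.50 and EFNA4 at −0.44 were the extremes, followed by SEMA4B at −0.42. The log2(FPKM + 1) scale understates SEMA6B, which was under 1 FPKM in both libraries. Its ratio of counts, SFE over SFA, was 2.94 (1.70 to 5.34). The class 3 semaphorins were slightly higher with SFE than with SFA, with ratios of 1.24 for SEMA3B (1.13 to 1.36), 1.28 for SEMA3C (1.06 to 1.53) and 1.12 for SEMA3F (1.02 to 1.23). The SEMA3F ratio fell to 1.08 under median-ratio and under upper-quartile scaling, so its order between the compounds is the least sure. SEMA4B, SEMA7A and EPHA2 were lower with SFE, with ratios of 0.722 (0.675 to 0.771), 0.725 (0.596 to 0.881) and 0.888 (0.850 to 0.927).

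Of 94 further genes of guidance signalling (co-receptors, sheddases, kinases, exchange factors and cytoskeletal effectors), 65 passed the filter. With SFE 1 of them was at least 2-fold higher and none lower, against 1.37% and 1.01% of all genes. With SFA 2 were higher and none lower, against 1.36% and 1.34%. SDC3, a heparan sulfate carrier of the cell surface, stood at 3.02 FPKM with SFE, 2.47 with SFA and 0.683 with DMSO, a ratio of 4.43 (3.56 to 5.54) and 3.62 (2.90 to 4.56). GPC1, a glypican that binds slit, stood at 69.3, 79.0 and 35.2 FPKM, a ratio of 1.97 (1.91 to 2.03) and 2.24 (2.17 to 2.31). Both of these surface proteoglycans were thus above DMSO in each treated library. SDC3 passed the filter through the treated libraries alone, so its counting among the higher genes is partly set by the filter.

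At the 1.5-fold limit, 4 signalling genes were higher and 3 lower with SFE, and 4 were higher and 3 lower with SFA, against the shares of all genes given above. VAV2 and VAV3, related exchange factors that Eph receptors recruit, lay on opposite sides. VAV2 stood at 10.9 FPKM with SFE, 10.5 with SFA and 6.03 with DMSO, and VAV3 at 1.29, 1.2 and 2.55 FPKM. NGEF, the exchange factor ephexin that EphA receptors use, stood at 1.70, 1.79 and 3.52 FPKM. ROCK2, a kinase that acts on the actin cytoskeleton, stood at 2.56, 2.76 and 4.57 FPKM. VAV3, NGEF and ROCK2 were thus below DMSO with each compound. The sheddase ADAM17 stood at 6.10, 7.16 and 4.36 FPKM, above DMSO in both treated libraries. ABL2, a kinase, stood at 2.65 FPKM with SFE, 1.33 with SFA and 1.23 with DMSO, and ABLIM1, an actin-binding protein, at 9.01, 5.66 and 9.07 FPKM, so each of these had 1 compound near DMSO. The median of the list was 0.02 with SFE and 0.00 with SFA.

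The deposited annotation places 61 of the 68 guidance genes in the KEGG term for axon guidance, which holds 109 further genes of the table, 64 of them measured and some also on the signalling list. Of these 64, none was at least 1.5-fold higher with either compound, while 2 were lower with SFE and 4 with SFA. All genes gave 5.34% higher and 3.48% lower with SFE, and 5.36% and 4.67% with SFA, so at this limit the counts of lower genes are near the background. Differences of any size lay below 0 for 68.8% of the 64 with SFE and 67.2% with SFA, against 44.8% and 48.6% of all genes. They lay above 0 for 31.2% and 32.8%, against 55.2% and 51.4%. This lean was not tested. With SFA the gene furthest from DMSO was CFL2, an actin-severing cofilin named after its values were seen, with 910 counts with SFE, 338 with SFA and 1431 with DMSO, or 5.40, 2.01 and 6.17 FPKM. The median difference was −0.07 with SFE and −0.11 with SFA, beside 0.03 and 0.01 over all genes.

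The order of levels among guidance genes depends on the gene length behind FPKM. For 86.8% of 12352 genes with 100 counts or more, the length implied by count and FPKM was within 1% of the sum of all distinct exons in GENCODE 29, with overlapping exons of different transcripts added more than once. Lengths were therefore longer than the merged exons, at the median 1.53-fold. SEMA3B had a length 3.11 times its merged exons, SEMA4B 2.39 times and EPHA2 1.12 times. On merged exons, SEMA3B stood at 13.6 FPKM with SFE, 10.9 with SFA and 18.7 with DMSO, and SEMA3F at 13.4, 12.0 and 19.8. EPHA2, PLXNB2 and EPHB4 were the 3 highest guidance genes in every library on either length, with EPHA2 above PLXNB2 in the SFE and SFA libraries and below it in the DMSO library. On merged exons these 3 stood at 69.3, 63.3 and 44.0 FPKM with SFE, 78.0, 64.0 and 45.2 with SFA, and 50.8, 77.8 and 40.4 with DMSO. Ratios between libraries use the same length for a gene and do not change with it.

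**Figure D5:**
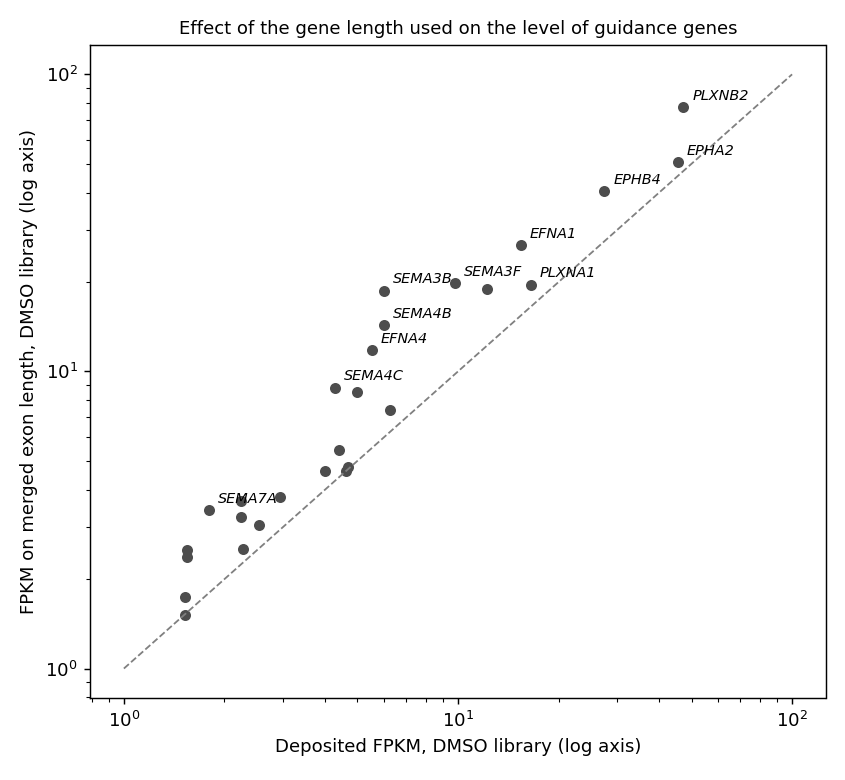
Deposited FPKM against FPKM on merged exon length (both log axes) for the 27 measured guidance genes in the DMSO library, with the dashed line where both are equal and names on the genes at 15 FPKM or more or with the largest length ratios. SEMA3B is at 6.00 FPKM on the deposited length and 18.7 on merged exons, SEMA4B at 6.00 and 14.3, and EPHA2 at 45.5 and 50.8.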

How the data were processed

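RNA was sequenced from 1 library each of cells labelled as AGS with SFE, SFA or DMSO. The submitters' processing notes name the hg38 build, StringTie 1.2.3 and HISAT2 2.0.4. What each tool did, how reads were counted, with or without strand, and which annotation release served are not given in the sources used here. In the table that the authors deposited, each of 50868 genes has a raw count and an FPKM value per library. The deposited FPKM is the count divided by the library's total and by 1 length per gene.

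A gene entered if any library had it at 1 FPKM or above, which 11680 did. Where identifiers shared a name (470 did), that with the higher mean FPKM stood for it. Differences are on log2(FPKM + 1), a scale that understates the change of low genes. They were counted at 2-fold and 1.5-fold. Every measured member is described, with ratios and intervals for those past 1.5-fold, for others of note and for low genes chosen after their values were seen. Ratios carry exact conditional (Clopper-Pearson) 95% intervals. They were tested only on data simulated with the counting error they assume, which checks the code and not their fit to these libraries. With 1 library per group, intervals cover counting error only. Reads carry no molecular identifiers, so copies of 1 molecule may be counted more than once and that error understated. Single libraries allow no test between conditions. Gene coordinates are those of the table, and 63 of 68 members had the same start and end in GENCODE 29. Of the 27 measured members 15 overlap another listed gene, 7 of them in exons. Promoter windows matched 58 of 68 members by symbol, taking the start nearest the listed gene start. One epithelial marker is not reported here. The members and lists were chosen with earlier results of these data known. Python 3.11.15, numpy 2.4.6, pandas 2.3.3 and scipy 1.17.1 were used.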

Additional observations from a re-analysis of the deposited data

How the results depend on the processing

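No paired analysis was possible because each group has a single library, and no replicate could be left out. The count of measured guidance genes at least 2-fold from DMSO was 0 with SFE and 1 with SFA. It became 1 with SFE at a pseudocount of 0.1 or 0.5. With SFA it became 2 at a pseudocount of 0.1, with SEMA3C added, and 0 at a filter of 5 FPKM, which SEMA6B does not reach. Between SFE and SFA it was 0 and became 1, SEMA6B, at a pseudocount of 0.1. At that pseudocount the share of all genes at least 2-fold lower than DMSO also grew, to 2.41% with SFE (1.01% at 1) and 3.20% with SFA (1.34% at 1). Signalling genes at least 2-fold from DMSO were 1 with SFE and 2 with SFA. With SFE they became 3 at a pseudocount of 0.1 and 0 at a filter of 5 FPKM, and with SFA 1 at that filter and 1 without overlapping genes. Fewer genes enter under these filters, and smaller pseudocounts shrink low genes less. Median-ratio and upper-quartile scaling, no filter, the sum over identifiers of a name and merged exon length, an alternative chosen after seeing the data, left all 2-fold counts within 1.5 times. At 1.5-fold, median-ratio scaling ended the calls of NTN4 with SFE and EPHA2 with SFA, leaving 0 higher in each comparison. Without overlapping genes neither NTN4 nor EPHA2 enters, and 0 were higher with either compound. NTN4 does not reach the filter of 5 FPKM, where 0 were higher with SFE. With SFA 2 were higher under upper-quartile scaling or on merged exons and 3 at a pseudocount of 0.1. Guidance genes at least 1.5-fold lower were 3 with SFE and 5 with SFA. Across settings the SFE count lay between 1, at the filter of 5 FPKM, and 5, at a pseudocount of 0.1. The SFA count lay between 2, at that filter, and 7, on merged exons. The median over measured guidance genes, −0.07 with SFE, became −0.18 under median-ratio scaling, −0.24 at the filter of 5 FPKM, −0.14 on merged exons, −0.12 without overlapping genes or at a pseudocount of 0.1, and −0.00 with no filter. With SFA it was −0.15, and −0.01 with no filter. That of SFE minus SFA, 0.04, became −0.005 under median-ratio scaling, −0.01 under upper-quartile scaling and −0.03 at the filter of 5 FPKM. Ratios of PLXNA2 and EFNA1, SFE over SFA, crossed 1 under both scalings, and with SFA those of SEMA4C under median-ratio scaling (0.988) and of EFNA2 under upper-quartile scaling (1.0). Depth limits EFNA2 and EFNA3, and most genes under 0.5 FPKM.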
